A study of Mus musculus with 6 samples.

Results

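The 36 genes described here act in the last part of the cell cycle: they drive the step from G2 into mitosis (G2/M), build the spindle and hold chromosomes to it at the kinetochore. They were chosen by name as mitosis genes, and each was read from the brightest probe set that the platform annotation gives to that gene alone. This left 35 of the 36 genes, out of 18417 genes measured on the same arrays. CENPA, the histone variant that marks the centromere, shares its probe set with SLC35F6 and entered no count.

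Tumours grew from SK-N-BE(2), an established human neuroblastoma line with amplified MYCN, placed in the adrenal gland of mice of the NSG strain, which lack T, B and natural killer cells. One group of 3 mice received BL-8040, a peptide inhibitor of the chemokine receptor CXCR4, at 400 µg under the skin for 14 days in a row from day 7 after the cells were placed, and the other group of 3 mice is labelled control. The sources used here do not say what the controls were given, and their labels carry the treatment text as well. All 6 tumours come from 1 cell line, so the tumours differ by mouse and graft, not by patient, and total RNA of each was read on 1 array of human probe sets (Affymetrix Human Gene 1.0 ST) as log2 signal. The labels name the mouse as organism, which is the host.

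Mitosis genes are transcribed late in the cycle and switched off again when the cell divides. In resting cells their promoters are held silent by the DREAM complex of pocket proteins, E2F4 and the LIN proteins, and in G2 the same promoters are activated by MYBL2 with the LIN proteins and then by FOXM1. Since these transcripts come and go together with each division, their summed level in a tissue follows the share of cells in G2 and M. In a bulk tumour sample fewer cells in mitosis and less of each transcript per cell cannot be told apart.

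The tissue label was checked against markers of noradrenergic neuroblastoma. MYCN lay between 12.10 and 12.34 on the log2 scale over the 6 arrays, the enzyme gene TH between 7.53 and 9.32, DBH between 8.66 and 10.42, PHOX2A between 7.19 and 7.77, and 8 of the 9 measured markers were above the median signal of all genes (6.04) on every array. The exception was ELAVL4, at 5.56 to 6.26. BL-8040 replicate 3 stood apart from the other arrays: it was the lowest of the 6 in 30.4% of all genes, against 12.3% to 17.5% for each other array, and had the lowest limma array weight (0.473, the others 0.804 to 1.81). All 9 measured noradrenergic markers were lowest in that tumour. Over all genes the array medians lay between 5.35 and 5.42. The arrays' number, 3 per group, limits the precision: limma's 95% interval around a BL-8040 minus control difference extended by a median of ±0.24 (log2) over the mitosis genes.

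Most of the 35 mitosis genes shared an order of the 6 tumours in which the top included 1 tumour of each group. By their median they were highest in BL-8040 replicate 3 and control replicate 1, lowest in control replicate 3, and in between in the other 3 tumours. Taken relative to the 6-array mean of each gene, the median over the 35 genes was 0.15 in BL-8040 replicate 3 and 0.16 in control replicate 1. It was -0.001 in BL-8040 replicate 1, -0.05 in BL-8040 replicate 2 and -0.04 in control replicate 2, and -0.17 in control replicate 3. The 2 tumours at the top and the tumour at the bottom thus include both ends of the control group. BL-8040 replicate 3 and control replicate 1 were the highest pair in 28 of 35 genes, against 4.88% of all genes, and this pair at the top together with control replicate 3 at the bottom was found in 22 of 35 genes, against 1.91% of all genes. Which of the top 2 led by this median depended on the scaling: control replicate 1 did in the deposited values, but BL-8040 replicate 3 after quantile normalization or median centring. By the mean log2 level of the 35 genes BL-8040 replicate 3 led in the deposited values too (8.10 against 8.08).

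**Figure D1:**
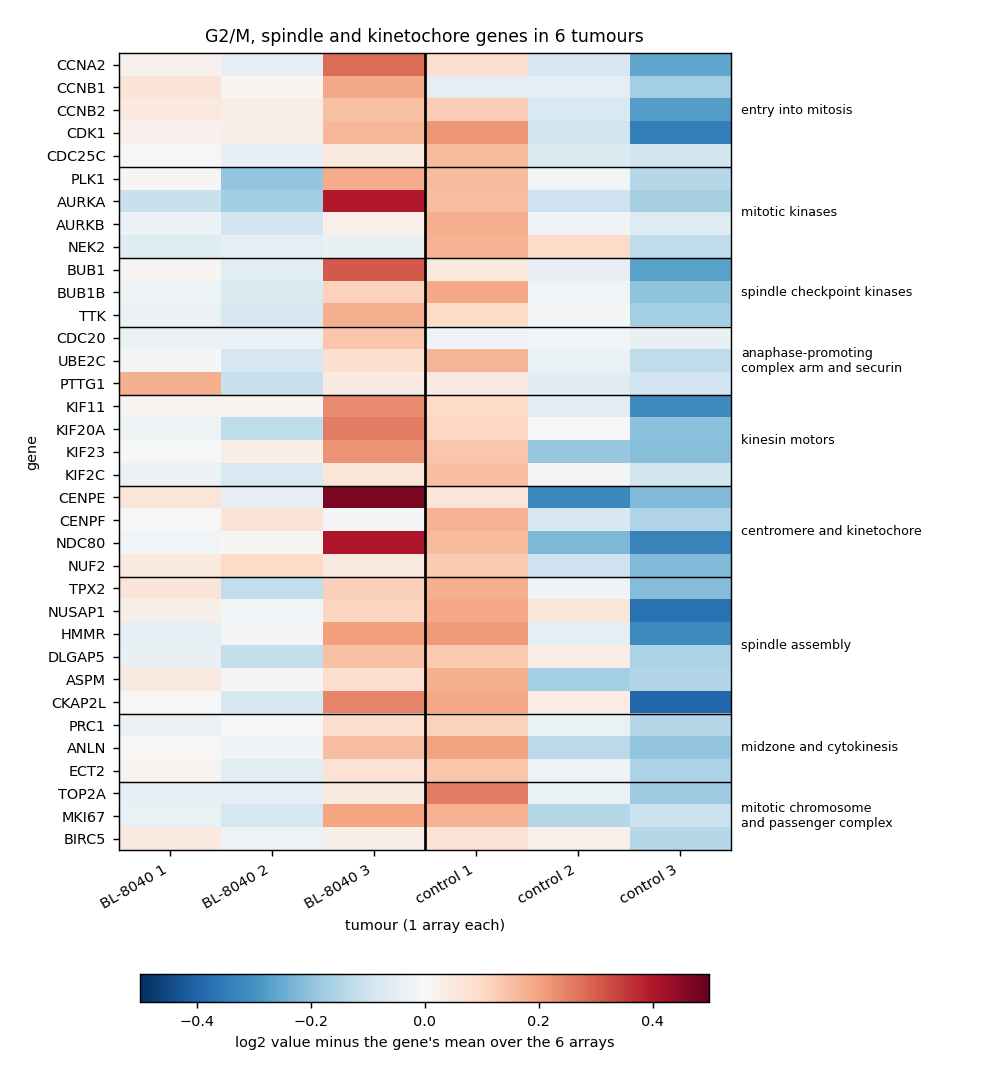
Level of each of the 35 genes (rows, grouped by role) in each tumour (columns, 1 array each), as log2 value minus the gene's mean over the 6 arrays; red is above and blue below that mean, and the thick line parts BL-8040 from control. BL-8040 replicate 3 and control replicate 1 are red in 33 genes each, and control replicate 3 is blue in all 35.

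Within the controls most of the mitosis genes shared one order. Control replicate 1 was above control replicate 3 in 35 of 35 genes, against 48.7% of all genes, by a median of 0.32 log2 units or 1.25-fold. The full order of control replicate 1 above 2 above 3 held in 30 of 35 genes, against 17.5% of all genes. Among the treated tumours BL-8040 replicate 3 was the highest in 31 of 35 genes, against 30.8% of all genes. The spread among the 3 controls exceeded the BL-8040 minus control difference in 33 of the 35 genes (median range 0.32 against a median size of the difference of 0.07), the exceptions being CCNB1 and CDC20; so it did in 80.9% of all genes. The treatment label accounted for a median of 6.79% of the sum of squares of a mitosis gene over the 6 arrays, where the median over all genes was 17.2%, and the within-group SD of the mitosis genes (median 0.15) lay at the median at percentile 77.7 of all genes.

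No mitosis gene passed the test of BL-8040 against control. The limma test with Benjamini-Hochberg adjustment called 0 of 35 mitosis genes at an adjusted p under 0.05, and 0.0% of all 18417 genes, and the adjusted p of the 35 genes ran from 0.646 to 0.996. At an unadjusted p under 0.05 the count was again 0 of 35, against 7.72% of all genes. The sign was uneven: 28 of 35 genes stood higher after BL-8040 and 7 lower, against 41.5% of all genes that stood higher, and the median difference was 0.07 over the mitosis genes and -0.02 over all genes. The 3 treated values lay above all 3 controls in 1 of 35 genes, against 4.93% of all genes, and below all 3 in 0, against 9.05%. The 95% intervals of all 35 genes held 0, and those of 33 left out a difference of 0.58 log2 units (about 1.5-fold) in either direction; CENPE and NDC80 were the other 2.

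The count of higher genes rested on single tumours at the ends of that order. Without control replicate 3, 16 of 35 genes stood higher and the median difference was -0.02. Without BL-8040 replicate 3 it was 19 of 35 and 0.01. Without control replicate 1 it was 34 of 35 and 0.14, with 9 of 35 genes at an unadjusted limma p under 0.05, against 9.98% of all genes in that fit, and 0 at an adjusted one.

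**Figure D2:**
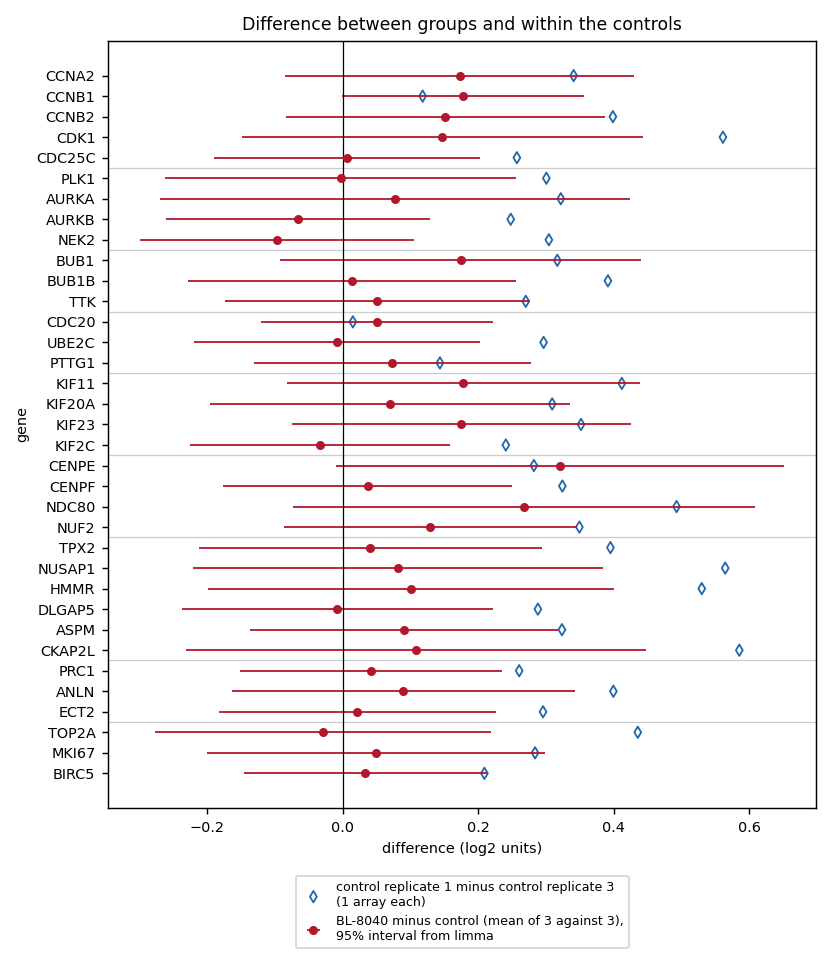
For each gene, the BL-8040 minus control difference in log2 units (filled circles, means of 3 arrays each, with limma's 95% interval) and the difference between control replicate 1 and control replicate 3 (open diamonds, 1 array each). All 35 intervals hold 0, and all 35 diamonds lie above 0.

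The genes of entry into mitosis come first. CDK1, the kinase that starts mitosis once a B-type cyclin has bound it, had log2 levels of 7.10, 7.11 and 7.24 in the treated tumours and 7.30, 6.98 and 6.73 in the controls, each given here and below in the order of replicates 1, 2 and 3, with treated values before controls. The controls alone spanned the treated tumours on both sides, and control replicate 1 was 1.48-fold above control replicate 3. CCNB1, the main cyclin partner of CDK1, read 8.39, 8.33 and 8.52 after BL-8040 and 8.27, 8.28 and 8.16 in controls. It was the only one of the 35 genes whose groups did not overlap, 1.13-fold higher after BL-8040 with a log2 difference of 0.18 ± 0.08 (SE, n = 3 each; limma adjusted p = 0.646). The gap between the lowest treated and the highest control value was small, and CCNB1 had the least spread among the controls of the cyclin genes. CCNB2, its close relative, read 8.96, 8.94 and 9.06 against 9.03, 8.84 and 8.64, and CCNA2, the cyclin of S and G2 phase, 9.22, 9.16 and 9.48 against 9.28, 9.12 and 8.94. Both overlapped between groups, with control replicate 3 the lowest tumour and BL-8040 replicate 3 the highest. CDC25C, the phosphatase that frees CDK1 of its inhibitory phosphates, differed by 0.01 (95% interval from -0.19 to 0.20), with control replicate 1 at the top.

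Of the 4 mitotic kinases 1, AURKA, stood higher after BL-8040 and 3 stood lower, with a median difference of -0.03. AURKA, the kinase of the spindle poles, read 7.43, 7.37 and 7.94 in the treated tumours and 7.70, 7.44 and 7.38 in the controls. BL-8040 replicate 3 was thus far above the other treated tumours, and the AURKA difference of 0.08 between groups turned to -0.10 without that array. PLK1, a kinase needed from the onset of mitosis to cytokinesis, read 9.85, 9.65 and 10.04 against 10.01, 9.84 and 9.71, a difference of -0.003 ± 0.11 (SE), whose sign changed with the scaling. AURKB, the kinase of the chromosomal passenger complex, differed by -0.07 and NEK2, a kinase of centrosome separation, by -0.10 (95% interval from -0.30 to 0.11), the lowest difference of the 35 genes. NEK2 also had the lowest Pearson r with the mean of the other mitosis genes (0.52), which was 0.81 with the group means removed. It read 7.00, 7.02 and 7.03 in the treated tumours, nearly flat, and 7.24, 7.16 and 6.94 in the controls.

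The genes BUB1, BUB1B and TTK serve the spindle checkpoint, which halts anaphase until every chromosome is attached. BUB1 read 7.48, 7.41 and 7.78 after BL-8040 and 7.52, 7.43 and 7.20 in controls, BUB1B 8.55, 8.50 and 8.69 against 8.77, 8.56 and 8.37, and TTK 6.72, 6.67 and 6.93 against 6.85, 6.75 and 6.58. In all 3 genes control replicate 3 was the lowest tumour and BL-8040 replicate 3 and control replicate 1 were the highest pair. BUB1 differed by 0.17 ± 0.12 (SE; adjusted p = 0.707), and without BL-8040 replicate 3 by 0.06. CDC20 and UBE2C belong to the arm that ends the checkpoint: CDC20 activates the anaphase-promoting complex and UBE2C is its ubiquitin-conjugating enzyme. CDC20 read 8.91, 8.91 and 9.08 against 8.92, 8.93 and 8.90, so that it was nearly flat in 5 tumours and only BL-8040 replicate 3 stood out. UBE2C read 7.64, 7.57 and 7.73 against 7.82, 7.62 and 7.53, with control replicate 1 highest and control replicate 3 lowest. PTTG1, the securin that this complex destroys, had BL-8040 replicate 1 as its highest tumour (7.57, 7.28 and 7.43 against 7.44, 7.33 and 7.29 in controls), the only gene led by that array. PTTG1 has near-identical gene copies that its probes may read.

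Among the kinesin motors, KIF11, which pushes the spindle poles apart, read 7.92, 7.92 and 8.14 against 8.01, 7.85 and 7.59, and KIF23, a motor of the central spindle, 8.27, 8.30 and 8.49 against 8.41, 8.08 and 8.05. Each was 1.13-fold higher after BL-8040, with limma adjusted p of 0.695 and 0.689. KIF20A, another motor of the midzone, differed by 0.07 and KIF2C, which depolymerises microtubules at centromeres, by -0.03. All 4 kinesin genes had control replicate 3 as the lowest of the 6 tumours, and BL-8040 replicate 3 as the highest treated one.

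The kinetochore genes CENPE and NDC80 had the largest differences between groups of the 35 genes. CENPE, a kinesin that carries chromosomes to the spindle equator, read 7.06, 6.95 and 7.47 after BL-8040 and 7.06, 6.67 and 6.78 in controls, 1.25-fold higher with a difference of 0.32 ± 0.15 (SE; 95% interval from -0.01 to 0.65; adjusted p = 0.646). NDC80, the outer kinetochore subunit that grips microtubules, read 6.50, 6.53 and 6.92 against 6.68, 6.29 and 6.18, 1.20-fold higher (0.27 ± 0.15, SE; adjusted p = 0.669). In both genes the groups overlapped through control replicate 1, and BL-8040 replicate 3 was the highest tumour. With that array left out, CENPE differed by 0.17 and NDC80 by 0.13. NUF2, which pairs with NDC80 in the same complex, did not share that peak: it read 7.50, 7.55 and 7.49 in the treated tumours and 7.58, 7.35 and 7.23 in the controls, with the 3 treated values close together. CENPF, a large kinetochore protein of G2 and mitosis, likewise read 9.05, 9.11 and 9.04 after BL-8040 and had its top value in control replicate 1 (9.22, 8.97 and 8.90 in controls).

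Among the spindle assembly genes, CKAP2L, a spindle protein, had the widest control range of the 35 genes. It read 6.84, 6.76 and 7.09 against 7.04, 6.88 and 6.45, so that control replicate 1 was 1.5-fold above control replicate 3. NUSAP1, which bundles microtubules at chromosomes, read 8.78, 8.74 and 8.86 against 8.95, 8.81 and 8.38, and HMMR, a spindle and hyaluronan-binding protein, 6.86, 6.91 and 7.12 against 7.12, 6.87 and 6.595. In these 3 genes control replicate 3 was lower than any other tumour by a clear margin, and their group differences of 0.11, 0.08 and 0.10 turned to -0.06, -0.08 and -0.03 without it. TPX2, which activates AURKA on the spindle, differed by 0.04, DLGAP5, a microtubule-binding protein of the spindle, by -0.01, and ASPM, a protein of the spindle poles, by 0.09.

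The genes of cytokinesis and of the mitotic chromosome followed much the same order. PRC1, which bundles microtubules between the parting chromosomes, read 8.97, 9.0 and 9.09 against 9.11, 8.96 and 8.85, ANLN, a scaffold of the contractile ring, 8.35, 8.34 and 8.51 against 8.55, 8.22 and 8.15, and ECT2, which activates RhoA there, 7.30, 7.23 and 7.36 against 7.43, 7.27 and 7.13. Each had control replicate 1 highest, BL-8040 replicate 3 second and control replicate 3 lowest, with group differences of 0.04, 0.09 and 0.02. TOP2A, the topoisomerase that untangles sister chromatids, read 8.92, 8.91 and 9.01 against 9.22, 8.93 and 8.78, with control replicate 1 above the rest and a group difference of -0.03 (95% interval from -0.28 to 0.22). MKI67, which encodes the proliferation marker Ki-67, read 8.35, 8.30 and 8.58 against 8.56, 8.24 and 8.28, a difference of 0.05 ± 0.11 (SE; limma adjusted p = 0.912). The proliferation marker thus read alike in BL-8040 replicate 3 and control replicate 1 and lower in the other 4 tumours. BIRC5, the survivin subunit of the passenger complex, differed by 0.03 and ranged from 7.10 to 7.31.

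The top 2 tumours, one of each group, shared a high level but not the same leading genes. BL-8040 replicate 3 was above control replicate 1 in 16 genes and below it in 19, with a median difference of -0.01. The widest gaps in favour of BL-8040 replicate 3 were those of CENPE (0.41 log2 units), BUB1 (0.26), AURKA (0.25), NDC80 (0.25) and CCNB1 (0.24). On the other side stood TOP2A (-0.21), NEK2 (-0.21), CENPF (-0.19) and AURKB (-0.16). These are single arrays, so the gaps carry no replicate error, and these genes were chosen with their values in view.

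Pairs of mitosis genes covaried across the tumours. Over the 595 pairs the median Pearson r across the 6 arrays was 0.78 (median Spearman rho 0.77), and r was above 0.5 in 87.6% of pairs, against 18.5% of all gene pairs, whose median was 0.03. With the group means removed, which takes the treatment contrast out, the median was 0.85, and 89.7% of pairs were above 0.5 (21.3% of all gene pairs). The pairs share the same 6 arrays, so these are descriptions with few degrees of freedom. Leaving out the 2 highest arrays, BL-8040 replicate 3 and control replicate 1, brought the median to 0.70. That subset still held control replicate 3, the array farthest from the middle (-0.17). Leaving out 1 array at a time gave 0.72 (without control replicate 3) to 0.84. A single principal component carried 79.7% of the variance of the 35 genes, against 37.2% over all genes. Related lists, described below, covaried to differing degrees over the 6 arrays. Their median r over pairs ran from 0.11 (transcription control) to 0.61 (other spindle and cytokinesis genes, 62.2% of pairs above 0.5). For genes of G1/S and DNA replication it was 0.54, with 54.8% of pairs above 0.5.

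The members that followed the common order most closely were HMMR (r = 0.97 with the mean of the other 34 genes), PRC1 (0.96), ANLN (0.96) and BUB1B (0.96). Those that did so least were NEK2 (0.52, or 0.81 with the group means removed), PTTG1 (0.54, or 0.49) and CDC20 (0.61, or 0.56), each over 6 arrays. Among genes whose proteins work together, r was 0.88 for CCNA2 and CDK1, 0.84 for PRC1 and KIF20A, 0.80 for BUB1 and BUB1B, 0.78 for KIF23 and ECT2 and 0.76 for NDC80 and NUF2. It was 0.74 for AURKA and TPX2, 0.69 for CCNB1 and CDK1, 0.61 for AURKB and BIRC5 and also for CENPE and BUB1B, and 0.40 for CDC20 and UBE2C, which stood farthest below the median of all pairs. TOP2A and MKI67 gave 0.78. The lowest r of any pair was -0.06.

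**Figure D3:**
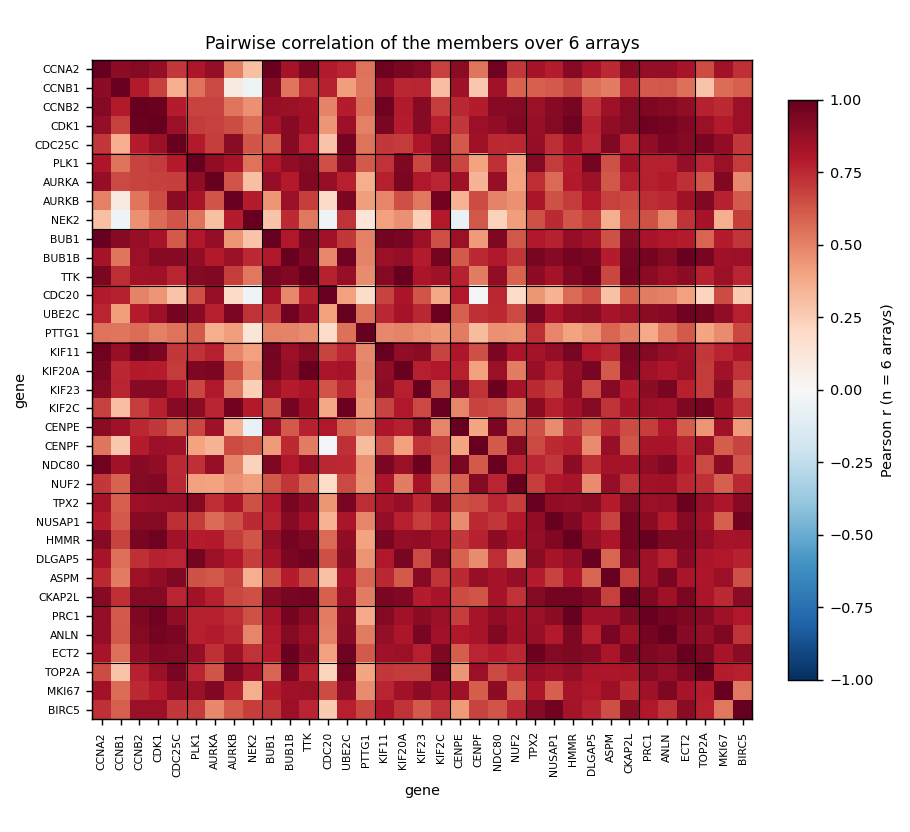
Pearson r over the 6 arrays for each pair of the 35 genes, ordered by role with black lines between roles; red is positive and blue negative. Most cells are red (591 of 595 pairs above 0), and the pale rows are those of NEK2, CDC20 and PTTG1.

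The regulators that switch these genes on and off did not share one order of the tumours. FOXM1, the activator of G2/M promoters, read 9.16, 8.90 and 9.25 after BL-8040 and 9.06, 8.94 and 8.79 in controls, a difference of 0.17 ± 0.11 (SE; limma adjusted p = 0.692), and it followed the mitosis genes with r = 0.86 over the 6 arrays. MYBL2, the activator that acts before it, read 9.25, 9.16 and 9.11 against 9.17, 9.21 and 9.0, and followed them with r = 0.38. RBL2, a pocket protein of the repressing DREAM complex, ran against them at r = -0.75, reading 7.03, 7.14 and 6.92 against 6.97, 7.03 and 7.06. RBL1, another pocket protein, ran with them at r = 0.63, and E2F4 had an r of -0.11. FOXM1 and RBL2 had the highest and the lowest r of the 13 genes in this control list, whose median was 0.12. Of the 13 genes of this control list, 9 stood higher and 4 lower after BL-8040 and 0 passed the test (limma, 0 of them at an unadjusted p under 0.05), with a median difference of 0.01. The genes with the smallest p were RBL1 (0.18), NFYC (-0.12) and NFYB (0.18), the latter 2 being subunits of the CCAAT-binding factor NF-Y. The NFYC values of the treated tumours lay below all controls, which held in 1 of the 13 genes and in 9.05% of all genes.

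The rest of the mitotic machinery kept part of that order. Over 6 lists, 130 further genes were measured, of which 96 stood higher and 34 lower after BL-8040, where 41.5% of all genes stood higher. In limma 0 passed the test (adjusted p under 0.05), and 5 higher and 0 lower ones had an unadjusted p under 0.05. The 5 are 3.85% of the 130 genes, near the 2.64% of all genes that were higher at that p; 5.08% of all genes were lower at it. Control replicate 1 was above control replicate 3 in 116 of the 130 genes, against 48.7% of all genes. Of 16 genes of CDK1 control and mitotic exit, 13 stood higher: MASTL, the kinase that restrains PP2A in mitosis, by 0.20, the phosphatase CDC25A by 0.24 and BORA, an activator of AURKA and PLK1, by 0.33 (log2, adjusted p = 0.644 each). The treated values lay above all controls in 2 of the 16 genes, MASTL among them, against 4.93% of all genes. They lay below all controls in 1, against 9.05%.

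Of 32 other kinetochore genes 24 stood higher, with CENPW (0.21), KNL1, the scaffold of BUB1 (0.24), CENPO (0.18) and CENPI (0.30) first by p or size. Of 39 other spindle and cytokinesis genes 32 stood higher, led by ARHGAP11A, a RhoA-inactivating protein, at 0.36 (unadjusted p = 0.0178, adjusted p = 0.644), and TACC3, a spindle protein that AURKA phosphorylates, at 0.19. NUMA1, which anchors the spindle poles, differed by -0.18, with all treated values below the controls. The ARHGAP11A difference stayed between 0.25 and 0.49 with 1 array left out, and that of NUMA1 between -0.23 and -0.11. Condensin and cohesin genes were split 10 to 7, with NCAPG at 0.13, NCAPH at 0.10 and SMC4 at 0.13. Subunits of the anaphase-promoting complex were split 8 to 5, with ANAPC1 at 0.20, ANAPC4 at 0.14 and ANAPC16 at -0.14. The treated values of ANAPC1 lay above all controls and those of ANAPC16 below, each 1 of 13 subunits. In the other spindle list 0 of 39 genes lay above all controls and 2 below. Over all genes these shares were 4.93% and 9.05%. The median r with the mean of the mitosis genes was 0.80 for the other spindle genes, 0.74 for the other kinetochore genes, 0.66 for CDK1 control, 0.60 for condensin and cohesin, 0.38 for the anaphase-promoting complex and 0.12 for the transcription control list, against -0.14 over all genes.

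The mitosis genes parted from the genes of G1/S and DNA replication in BL-8040 replicate 3, as they did from some of the other mitotic lists. The median of 32 G1/S genes was 0.08, 0.05 and -0.01 in the treated tumours and 0.03, -0.04 and -0.15 in the controls, again by replicate. Subtracted from the median of the mitosis genes, this left 0.16 in BL-8040 replicate 3 and 0.12 in control replicate 1, near 0 in control replicate 2 (0.0002) and control replicate 3 (-0.02), and -0.08 and -0.10 in BL-8040 replicates 1 and 2. BL-8040 replicate 3 was the highest treated tumour in 31 of 35 mitosis genes but in 3 of 32 G1/S genes, and the lowest treated one in 2 and 21 of them, against 45.5% of all genes. Control replicate 3 was at the bottom in both lists. In BL-8040 replicate 3 the median was -0.001 for condensin and cohesin, -0.03 for the anaphase-promoting complex and -0.04 for the transcription control list. That array was the highest treated one in 6 of 17, 2 of 13 and 2 of 13 of their genes. The other kinetochore, other spindle and CDK1 control lists were at 0.07, 0.06 and 0.06 there. The differences between the lists were not tested.

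**Figure D4:**
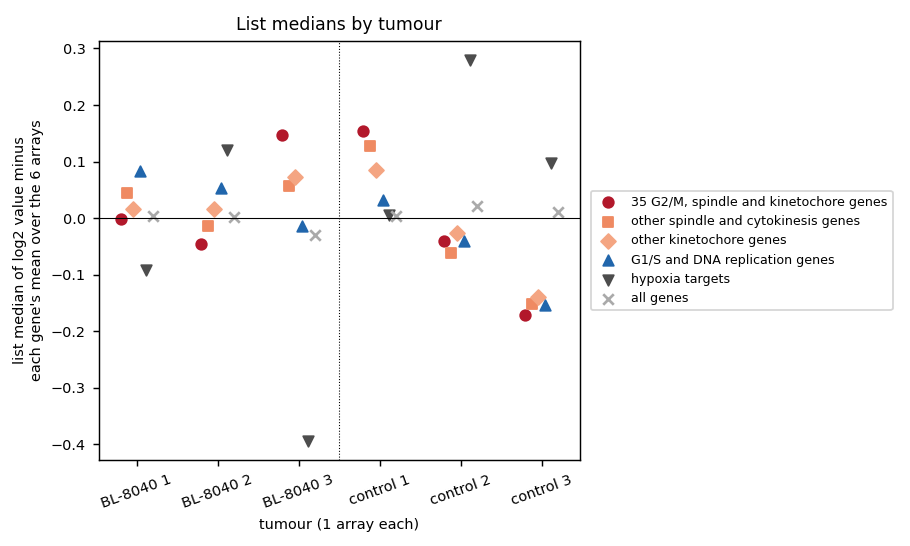
Median over each list of log2 value minus each gene's mean over the 6 arrays, by tumour (1 array each). The 35 mitosis genes and the other spindle and kinetochore genes peak in BL-8040 replicate 3 and control replicate 1, whereas the G1/S genes are below 0 in BL-8040 replicate 3 and the hypoxia targets are at -0.39 there.

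Other programmes also differed between these tumours. The 21 measured hypoxia targets had medians of -0.09, 0.12 and -0.39 in the treated tumours and 0.01, 0.28 and 0.10 in the controls, and BL-8040 replicate 3 was the lowest of the 6 tumours in 20 of them, against 30.4% of all genes. Their r with the mean of the mitosis genes was below 0 in 21 of 21 (median -0.65, 6 arrays). It was also below 0 in all 9 noradrenergic markers (median -0.36) and in 10759 of the 18417 genes (median -0.14). The noradrenergic markers had medians of -0.04, 0.07 and -0.21 after BL-8040 and 0.05, 0.24 and 0.00 in controls. Markers of cell types that the host can add to the graft were also read, as the mean of each list. The probe sets are human, so signal from the human tumour cells and from mouse host cells cannot be told apart here. The fibroblast list was bright, at a median signal percentile of 94.5 among all genes. The mean log2 level of 6 fibroblast markers ran from 8.18 to 8.64 in the treated tumours, highest in replicate 3. In the controls it ran from 8.24 to 8.36. BL-8040 replicate 3 was the highest treated tumour in 4 of these 6 markers, but the lowest in LUM (10.39) and DCN (9.29). The mean of 6 myeloid markers ran from 5.08 to 5.27 in the treated tumours and from 5.02 to 5.15 in the controls. The 6 endothelial markers ran from 4.22 to 4.39 and from 4.31 to 4.39. For the 5 adrenal cortex markers it was 4.14 to 4.30 and 4.14 to 4.22. Both lists were dim on this human array, at median signal percentiles of 25.5 and 25.0 among all genes. The myeloid list was dim too (30.3), apart from PTPRC (83.3) and CD68 (54.7). The part of these programmes in the order of the mitosis genes was not tested.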

How the data were processed

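Total RNA of 6 xenograft tumours (200 ng each) was labelled and hybridised to human arrays, per the labels' protocols, and the titles gave each sample's group and number. The authors deposited log2 values, 1 column for each array, in 1 table; the scale was read from the values, 1.08 to 13.2. The software was Partek 6.6, per the submitters' processing notes. The methods of background correction, normalization and probe summary, not given in the sources used here, remain unknown, and no detection calls were used. Human promoter sequences were not used here, so the planned motif search was not run.

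Of 33297 probe sets, 19460 carry 1 platform symbol and 1754 several; the brightest probe set by 6-array mean was kept for each of 18417 genes. All 35 mitosis genes measured were above the median signal of all genes (6.04). Each gene's difference between the groups of 3 arrays was tested on both sides with limma 3.58.1 in R 4.3.3 (lmFit, eBayes), unblocked, with Benjamini-Hochberg adjustment across the 18417 genes and calls at an adjusted p under 0.05. Nothing beyond the mouse is said of how replicates were kept apart. The p-values set each group difference against the spread between these tumours within the groups, which eBayes moderates over all genes. With 3 against 3 arrays the smallest p of an exact permutation test is 0.1. The test was also run on simulated arrays whose noise was independent between genes, unlike the covarying genes here. Nothing is concluded from that run.

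The members and lists were chosen with earlier results of these data known. Lists are described by counts and medians beside all genes, and r is a description. Of the other mitosis lists the 3 genes with the smallest p and the 1 with the largest difference are named. Genes of the G1/S and hypoxia lists are not named. FOXM1, MYBL2, RBL2 and E2F4 are named for their roles and were chosen after their values were seen. Of the 5 genes outside all lists most like the mitosis genes, 4 are named and 1 is not reported here. Alternatives were filters on dim genes, the mean of probe sets, quantile normalization, median centring, trend with robust moderation, array weights, a block on the replicate number, and leaving out each array.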

Additional observations from a re-analysis of the deposited data

How the results depend on the processing

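Under all alternatives run, 0 of the mitosis genes and 0 of all genes had a limma adjusted p under 0.05. The median difference of the mitosis genes moved by less than the spread between tumours (0.14), and was negative only without control replicate 3; leaving out 1 array gave -0.02 to 0.14, and array weights 0.03. With 1 array left out, 16 to 34 of 35 genes stood higher, 0 to 9 had an unadjusted p under 0.05, and over all genes 905 to 1838 had one. That count over the mitosis genes was 1 when genes under the median signal were dropped (714 over all genes), 1 when genes under log2 6 were dropped (727), 1 after quantile normalization, 1 after median centring, 2 with trend and robust moderation and 1 with the replicate block. Same-numbered tumours did not deviate together (r of their deviations -0.037, 0.017 and 0.077), so the numbers are not taken as pairs; the block left 0 calls and moved the count over all genes from 1422 to 1488.

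The order of the tumours kept control replicate 3 at the bottom and the same 2 tumours at the top under each scaling, with a range of medians of 0.33, 0.34 and 0.36 in the deposited, quantile-normalized and centred values; control replicate 2 lay below BL-8040 replicate 2 in the latter 2.

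Differences near 0 changed sign, the cause of which was not tested: after quantile normalization PLK1 (0.0015) and DLGAP5 (0.0041), after median centring PLK1 (0.019), UBE2C (0.013) and DLGAP5 (0.014), with array weights AURKA (-0.023) and BUB1B (-0.021), and with the mean of probe sets BIRC5 (-0.010). With 1 array left out the differences that crossed 0 ran from -0.088 to 0.056 for DLGAP5, from -0.096 to 0.094 for PLK1, from -0.073 to 0.075 for UBE2C, from -0.048 to 0.062 for RBL2, from -0.040 to 0.088 for CDC25C, from -0.10 to 0.18 for AURKA, from -0.082 to 0.11 for BUB1B, from -0.027 to 0.11 for TTK, from -0.0074 to 0.079 for CDC20, from -0.040 to 0.15 for KIF20A, from -0.057 to 0.14 for TPX2, from -0.051 to 0.097 for ECT2, from -0.036 to 0.15 for MKI67, from -0.12 to 0.0089 for AURKB, from -0.087 to 0.033 for KIF2C, from -0.13 to 0.092 for TOP2A, from -0.029 to 0.13 for CENPF, from -0.084 to 0.20 for NUSAP1, from -0.032 to 0.23 for HMMR, from -0.061 to 0.23 for CKAP2L, from -0.020 to 0.11 for PRC1, from -0.029 to 0.076 for BIRC5 and from -0.017 to 0.089 for MYBL2.

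With 3 arrays per group and no detection calls, signal over background could not be judged for the dim markers of host cell types.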

Other observations

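CENPA, the centromeric histone, has 1 probe set, which the annotation shares with the transporter gene SLC35F6. It read 8.09, 7.89 and 8.2 in the treated tumours (replicates 1 to 3) and 8.12, 7.95 and 7.87 in the controls, with the same top 2 and bottom tumour as the mitosis genes (r = 0.91 with their mean over 6 arrays). How much of that signal is CENPA is not known here. The second, dimmer probe set of BIRC5 lay between 4.08 and 4.22 and did not follow the brighter one (r = -0.06 with the mean of the mitosis genes, against 0.82).

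Among 1967 genes outside all lists with an SD of at least 0.2 over the 6 arrays, those most like the mean of the mitosis genes included ESCO2, an acetyltransferase of sister chromatid cohesion (r = 0.95), ZNF493 (0.94), GREB1L (0.93) and the small nucleolar RNA SNORD49A (0.93). ESCO2 read 7.33, 7.28 and 7.54 after BL-8040 against 7.404, 7.23 and 6.91 in controls. An r above 0.9 was reached by 15 of these 1967 genes, or 0.763%. With 6 arrays such values are a description of these tumours.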
